A study of Mus musculus with 24 samples.

Results

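The genes described here encode the proteins of the mitochondrial ribosome, and their mRNA was followed in mouse hearts after a stroke of the brain. They were taken as every gene whose annotated symbol starts with Mrpl or Mrps followed by a digit, which gave 76 of the 24011 named genes on the arrays. By the assignment of their products, 50 belong to the large ribosomal subunit and 25 to the small subunit. The remaining one, Mrps36, carries the name but its product is now known as a subunit of the alpha-ketoglutarate dehydrogenase complex. Hearts came from wild-type C57BL/6J mice of 8 weeks of age. The mice had been sham operated, or a stroke had been set by middle cerebral artery occlusion (MCAO), which cuts off the blood of a brain region, and hearts were taken 24 h or 72 h later. The 4 groups, sham and MCAO at each time, hold 6 Affymetrix arrays each, hybridised with biotinylated cRNA made from total RNA of the heart. Whether each array is a separate animal is not stated in the labels, and p-values therefore reflect the spread of these samples, which may be technical. The description given for the 72 h samples says 24 h, but the titles say 72 h and were followed.

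Mitochondria make a small set of inner membrane proteins of the respiratory chain and the ATP synthase on their own ribosomes. The RNA of these ribosomes is transcribed from mitochondrial DNA, whereas all of their proteins are encoded in the nucleus, translated in the cytosol and imported. Many of the proteins descend from bacterial ribosomal proteins, and others are found in mitochondrial ribosomes and have no bacterial counterpart. The heart depends on this system for its ATP, and inherited defects of several of the genes in people cause cardiomyopathy.

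Values are the deposited log2 expression levels, in which a difference of 1 is a 2-fold change, and differences are given as MCAO minus sham of the same time. A gene is said to have risen or fallen where limma's test over all 24011 genes gave a Benjamini-Hochberg adjusted p under 0.05. Averaged over all arrays, the levels of the 76 genes ran from 3.59 to 9.71, and 72 of them were above 4.16, the median of all genes. Levels of different genes are not compared, since each rests on its own probes. The RNA is of whole hearts, in which fewer cells of a type and less RNA per cell cannot be told apart.

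Some arrays stood apart from their own group, and the 76 genes were among those that moved. In MCAO 24 h replicate 5, 31.6% of the 76 genes were 0.5 or more from the mean of the other arrays of the group, against 15.1% of all genes. The share was 31.6% against 10.5% in sham 24 h replicate 5, 21.1% against 4.11% in sham 24 h replicate 3, and 22.4% against 4.06% in sham 72 h replicate 3. MCAO 24 h replicate 6 had 19.7% of the 76 genes that far from its group and 18.9% of all genes. The median SD of the 76 genes within a group was 0.234 in sham 24 h, 0.242 in MCAO 24 h, 0.178 in sham 72 h and 0.159 in MCAO 72 h, where the median over all genes was 0.130, 0.218, 0.114 and 0.105. Calls that were lost or gained when 1 array was left out are given with the genes described in detail.

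After stroke, mitochondrial ribosomal protein genes were mostly lower in the heart, by small amounts. At 24 h, 22 of the 76 genes had fallen and 2, Mrps30 and Mrpl10, had risen, where 10.8% of all genes had fallen and 11.1% had risen. At 72 h, 9 had fallen and 0 had risen, where 1.19% of all genes had fallen and 1.17% had risen. The median difference of the 76 genes was −0.19 at 24 h and −0.28 at 72 h, where the median of all genes was 0.01 and 0.00. At 24 h 60 of the 76 genes were below their sham mean, and at 72 h 70 were, which is 92.1% against 49.2% of all genes. Differences ran from −1.21 (Mrps16) to 0.35 (Mrpl10) at 24 h, and from −0.88 (Mrpl42) to 0.12 (Mrpl20) at 72 h. The heat map of differences by array shows blue along most rows of the MCAO 72 h columns, and a more mixed picture in MCAO 24 h.

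**Figure D1:**
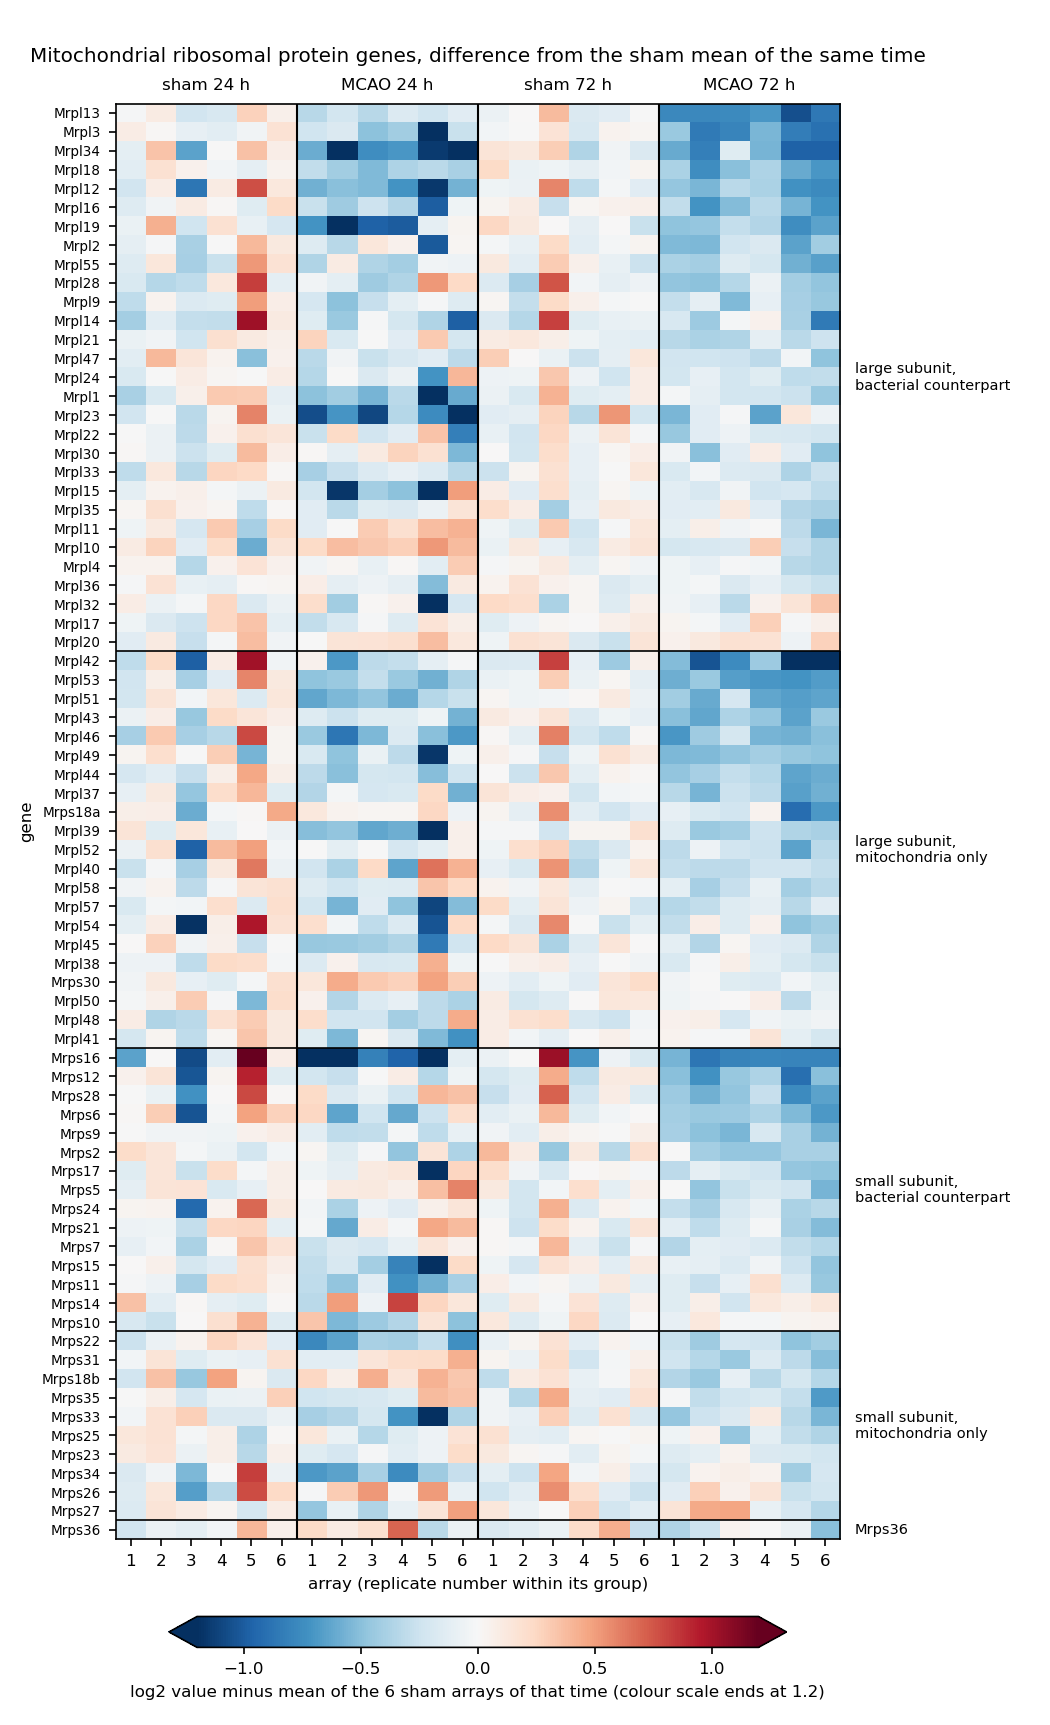
Difference of each of the 76 genes (rows, grouped by subunit and by whether they were listed as having a bacterial counterpart) from the sham mean of the same time, in log2, in each of the 24 arrays (columns, by group and replicate number). Blue is lower and red is higher than sham, the colour scale ends at 1.2, and rows are ordered by the 72 h difference within a block; sham 24 h replicates 3 and 5 and sham 72 h replicate 3 stand out among the sham columns.

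The 22 that fell at 24 h are 28.9% of the mitochondrial ribosomal protein genes and the 2 that rose are 2.63%, and the 9 that fell at 72 h are 11.8%. For a background of similar level, there are 3162 genes whose mean lies between the quartiles of the members' means, 6.35 and 8.06. Of these, 14.1% had fallen and 14.7% had risen at 24 h, and 3.00% and 3.35% at 72 h. At an unadjusted p under 0.05, 28 were lower and 3 higher at 24 h, where 16.7% of all genes were lower and 17.9% higher. At 72 h 36 were lower and 0 higher, where 5.40% and 5.54% of all genes were.

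The counts depend on how the spread between arrays was estimated. Fitted on the arrays of 1 time alone, 10 of the genes passed the threshold at 24 h and 27 at 72 h, the latter including the 9. In these fits 4.36% of all genes fell at 24 h and 2.81% at 72 h. Weighting arrays by their quality gave 19 at 24 h and 30 at 72 h, where 7.04% and 3.96% of all genes fell. Leaving out MCAO 24 h replicate 5 gave 16 at 72 h. The share of all genes is not given for fits that left out arrays, so these counts are not read against a background. In 24 fits that each left out 1 array, 16 of the 24 calls at 24 h and 7 of the 9 at 72 h were kept in every fit. Another 11 genes passed in at least 1 of these fits at 24 h, and 9 at 72 h. Mrpl15 passed by the narrowest margin at 24 h (adjusted p = 0.0487) and in 2 of the 24 fits. Odorant and vomeronasal receptor genes were read as well, 1370 in number, of which 39 were above the median level of all genes. At 24 h 159 passed the threshold, 6.28% of them all as higher and 5.33% as lower, against 11.1% and 10.8% of all genes. At 72 h 1 passed. With their first principal component as a covariate, 3 genes passed at 24 h (Mrpl19, Mrps22 and Mrpl51) and 11 at 72 h, where 0.646% and 1.38% of all genes fell. The 24 h differences of Mrpl1, Mrpl10 and Mrpl12 changed sign, to 0.04, −0.003 and 0.03. The receptor genes themselves differed with MCAO at 24 h. Their SD around the sham mean was 0.0919 to 0.129 in sham and 0.151 to 0.304 in MCAO arrays. The covariate can thus carry part of the MCAO difference, and what this fit takes away cannot be told apart from it.

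The calls at the 2 times overlapped in part. Mrpl51, Mrpl18, Mrpl53, Mrpl44, Mrps9, Mrpl16 and Mrpl34 fell at both, which is 31.8% of the 22 and 77.8% of the 9. Another 15 passed the threshold as lower at 24 h and not at 72 h, and Mrpl13 and Mrpl43 at 72 h and not at 24 h. There were 50 genes that passed it at neither time, of which Mrps36 is one, at 0.14 (24 h) and −0.19 (72 h). The MCAO comparisons at 24 h and 72 h use different arrays but 1 common estimate of each gene's variance.

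**Figure D2:**
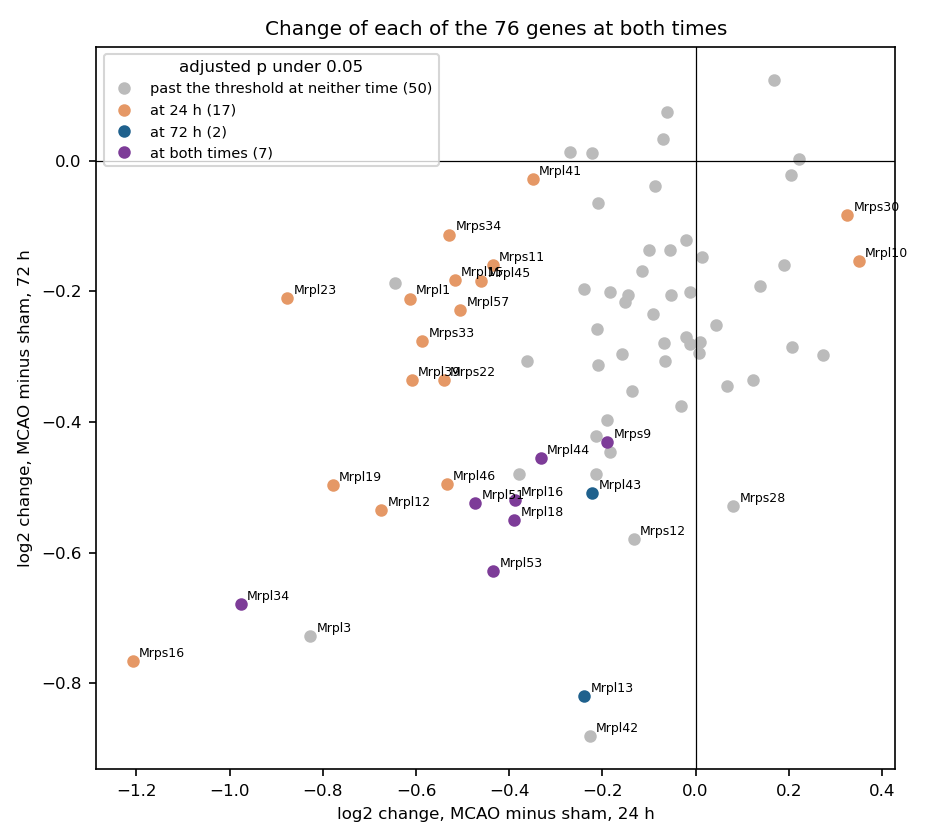
Log2 difference, MCAO minus sham, at 24 h (horizontal) and 72 h (vertical) for each of the 76 genes; colours mark the times at which adjusted p was under 0.05. Of the 76 points, 56 lie below 0 at both times, and Mrps30 and Mrpl10, the 2 that rose at 24 h, lie below 0 at 72 h.

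Among large subunit genes with a bacterial counterpart, Mrpl13 showed the clearest fall at 72 h. Mrpl13 (Entrez 68537), the counterpart of bacterial L13, ranged from 7.06 to 7.61 with a median of 7.19 in the 6 sham arrays at 72 h, and from 6.18 to 6.53 with a median of 6.46 in the 6 MCAO arrays. All MCAO arrays lay below all sham arrays. The difference was −0.82 (SE 0.09, adjusted p = 1.31e-05), or 1.76-fold lower. At 24 h the sham arrays held 6.88 to 7.39 with a median of 7.13 and the MCAO arrays 6.77 to 6.97 with a median of 6.88, and these ranges overlap. The difference there was −0.24 (SE 0.09, adjusted p = 0.0577). It passed the threshold without MCAO 24 h replicate 6 (0.0461), sham 24 h replicate 3 (0.0293) or 4 (0.0408) or sham 72 h replicate 3 (0.0283).

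Mrpl18 (Entrez 67681), the counterpart of bacterial L18, a binder of 5S ribosomal RNA in bacteria, was lower in every MCAO array than in any sham array at both times. At 24 h sham arrays ranged from 9.03 to 9.34 with a median of 9.16 and MCAO arrays from 8.63 to 8.86 with a median of 8.78. At 72 h the ranges were 9.04 to 9.38 (median 9.10) in sham and 8.40 to 8.77 (median 8.59) in MCAO. It fell 1.31-fold at 24 h (−0.39, SE 0.07, adjusted p = 0.000648) and 1.46-fold at 72 h (−0.55, SE 0.07, adjusted p = 9.56e-05).

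Mrpl34 (Entrez 94065), the counterpart of L34, fell 1.97-fold at 24 h and 1.60-fold at 72 h. Its values at 24 h ran from 8.11 to 9.11 (median 8.80) in sham and from 7.41 to 8.16 (median 7.81) in MCAO, with 1 sham array, the lowest, inside the MCAO range. At 72 h they ran from 8.47 to 9.12 (median 8.87) in sham and from 7.85 to 8.68 (median 8.11) in MCAO, again with overlap. The differences were −0.98 (SE 0.17, adjusted p = 0.000396) and −0.68 (SE 0.17, adjusted p = 0.033). The 72 h call was lost when MCAO 72 h replicate 2, 5 or 6 or sham 72 h replicate 1, 2, 3 or 5 was left out, with adjusted p up to 0.0993.

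Mrpl16 (Entrez 94063), whose bacterial counterpart L16 lies near the tRNA binding sites, had sham values of 7.87 to 8.25 (median 8.01) and MCAO values of 7.04 to 7.97 (median 7.72) at 24 h. At 72 h sham arrays held 7.79 to 8.16 (median 8.11) and MCAO arrays 7.35 to 7.78 (median 7.53). The groups overlap at 24 h and do not at 72 h. It fell by 0.39 at 24 h (SE 0.12, adjusted p = 0.0201) and by 0.52 at 72 h (SE 0.12, adjusted p = 0.0131). Without sham 24 h replicate 6 the adjusted p at 24 h was 0.0506.

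Mrpl3 (Entrez 94062), mutated in people with a mitochondrial disease that includes hypertrophic cardiomyopathy, had MCAO values below all sham values at both times and passed the threshold at neither. At 24 h sham arrays ranged from 8.44 to 8.74 (median 8.55), and MCAO arrays from 5.19 to 8.39 (median 8.22), of which the 5.19 is replicate 5. At 72 h sham arrays ranged from 8.49 to 8.85 (median 8.69) and MCAO arrays from 7.79 to 8.23 (median 7.87). The differences were −0.83 (SE 0.34, adjusted p = 0.0869) and −0.73 (SE 0.34, adjusted p = 0.424). The variance that the 24 h array adds is shared by the 72 h comparison. Without MCAO 24 h replicate 5, the difference was −0.32 at 24 h (adjusted p = 0.0109) and −0.73 at 72 h (adjusted p = 1.29e-05).

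The stalk of the large subunit, which recruits translation factors, is built on Mrpl10 with Mrpl12 and Mrpl11 close by, and these genes did not move together at 24 h. Mrpl10 (Entrez 107732) was at 7.07 to 7.94 (median 7.80) in sham and 7.90 to 8.20 (median 8.02) in MCAO, with a small overlap, and rose 1.27-fold (0.35, SE 0.12, adjusted p = 0.0405). Sham 24 h replicate 5 is its lowest sham array: without it the difference was 0.23 (adjusted p = 0.106). The call was also lost without MCAO 24 h replicate 2, 3, 4, 5 or 6 or sham 24 h replicate 3. Mrpl12 (Entrez 56282), whose product also binds the mitochondrial RNA polymerase, was at 8.31 to 9.95 (median 9.27) in sham and 8.02 to 8.67 (median 8.60) in MCAO, and fell 1.60-fold (−0.68, SE 0.19, adjusted p = 0.0124). Mrpl11 differed by 0.19 at 24 h and by −0.16 at 72 h and passed the threshold at neither. At 72 h Mrpl10 differed by −0.15 (adjusted p = 0.844) and Mrpl12 by −0.53 (adjusted p = 0.168).

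Mrpl1 and Mrpl23 fell at 24 h. Mrpl1 (Entrez 94061), the counterpart of L1, which helps move used tRNA out of the ribosome, ranged from 5.99 to 6.69 (median 6.36) in sham and from 5.09 to 6.06 (median 5.86) in MCAO. It fell 1.53-fold (−0.61, SE 0.14, adjusted p = 0.00387), with a slight overlap of the groups. Mrpl23 (Entrez 19935), the counterpart of L23 at the exit of the peptide tunnel, ranged from 4.01 to 4.93 (median 4.30) in sham and from 3.04 to 3.99 (median 3.43) in MCAO, without overlap, and fell 1.83-fold (−0.88, SE 0.18, adjusted p = 0.00128). At 72 h the differences of both were −0.21, with adjusted p of 0.751 for Mrpl1 and 0.874 for Mrpl23. Mrpl23 is 1 of the 4 members with a mean below the median of all genes.

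Large subunit proteins that were listed here as without a bacterial counterpart, Mrps18a among them, are encoded by 21 of the genes. All 21 were below their sham mean at 72 h, with a median of −0.31. Mrpl51 (Entrez 66493) ranged from 7.36 to 7.74 (median 7.63) in sham and from 6.96 to 7.31 (median 7.08) in MCAO at 24 h. At 72 h it ranged from 7.57 to 7.75 (median 7.63) in sham and from 6.97 to 7.44 (median 7.02) in MCAO. All MCAO arrays lay below all sham arrays at both times. It fell by 0.47 (SE 0.08, adjusted p = 0.000396), or 1.39-fold, and by 0.52 (SE 0.08, adjusted p = 0.000655), or 1.44-fold.

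Mrpl53 (Entrez 68499) was at 8.63 to 9.62 (median 8.99) in sham and 8.46 to 8.74 (median 8.58) in MCAO at 24 h, with overlap. At 72 h it was at 8.99 to 9.40 (median 9.04) in sham and 8.38 to 8.66 (median 8.44) in MCAO, without overlap. The falls were 1.35-fold (−0.43, SE 0.11, adjusted p = 0.00798) and 1.55-fold (−0.63, SE 0.11, adjusted p = 0.00198). Mrpl43 (Entrez 94067) separated the groups at 72 h, with 7.27 to 7.59 (median 7.43) in sham and 6.79 to 7.05 (median 6.94) in MCAO. It fell 1.42-fold there (−0.51, SE 0.10, adjusted p = 0.00375), and at 24 h it differed by −0.22 (adjusted p = 0.106) with overlapping groups. Without sham 24 h replicate 3 the 24 h difference was −0.31 (adjusted p = 0.0102).

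Mrpl44 (Entrez 69163), a protein with a ribonuclease III-like domain whose mutations cause an infantile hypertrophic cardiomyopathy in people, fell at both times. Its ranges at 24 h were 6.60 to 7.34 (median 6.85) in sham and 6.36 to 6.66 (median 6.60) in MCAO, which overlap. At 72 h they were 6.58 to 7.17 (median 6.85) in sham and 6.21 to 6.56 (median 6.40) in MCAO, which do not. The differences were −0.33 (SE 0.11, adjusted p = 0.0296) and −0.45 (SE 0.11, adjusted p = 0.019). The 72 h call was lost without MCAO 72 h replicate 5 or 6 or sham 72 h replicate 3 (adjusted p up to 0.0616), and the 24 h call without MCAO 24 h replicate 2 or 5 or sham 24 h replicate 4, 5 or 6 (up to 0.0814).

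Mrpl42 had the lowest 72 h difference of all 76 genes and did not pass the threshold, at −0.88 (SE 0.24, adjusted p = 0.0568). It passed without MCAO 24 h replicate 6, MCAO 72 h replicate 4 or sham 24 h replicate 3 or 5 (adjusted p from 0.0193). It lies outside the rule by which genes were chosen to be named and is given after its value was seen. The same holds for Mrpl15, Mrpl20, Mrpl46 and Mrps16, and for other genes named only as part of a count. At 24 h Mrpl45, which holds the ribosome to the inner membrane, fell by 0.46 (adjusted p = 0.00406), Mrpl57 by 0.51 (adjusted p = 0.00447) and Mrpl39 by 0.61 (adjusted p = 0.0062). Mrpl41 fell by 0.35 (adjusted p = 0.0272), a call lost without MCAO 24 h replicate 2, 5 or 6 or sham 24 h replicate 5 or 6 (adjusted p up to 0.0745). Mrpl58, a peptidyl-tRNA hydrolase that rescues stalled ribosomes, was at −0.02 (24 h) and −0.27 (72 h, adjusted p = 0.183). Mrps18a, a large subunit protein in spite of its name, was at 0.07 and −0.34, and Mrpl32, whose product is cut by the m-AAA protease before assembly, at −0.27 and 0.01.

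Mrps30 (Entrez 59054), which also sits in the large subunit, rose at 24 h, as Mrpl10 did. Sham arrays ranged from 7.05 to 7.39 (median 7.17) and MCAO arrays from 7.34 to 7.69 (median 7.51), so that the highest sham array lies just above the lowest MCAO array. It rose 1.25-fold (0.33, SE 0.07, adjusted p = 0.00261). The 24 h call of Mrps30 was kept in all 24 fits without 1 array, and was lost with array weights and with the receptor gene covariate. With array weights Mrpl10 did not pass either, and all 19 genes that passed at 24 h were lower. At 72 h sham arrays held 7.09 to 7.44 (median 7.17) and MCAO arrays 7.06 to 7.21 (median 7.14), a difference of −0.08 (adjusted p = 0.881).

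Of the 25 small subunit genes, 6 (24%) fell at 24 h and 1 (4%) at 72 h, where 10.8% and 1.19% of all genes fell. Of the 50 large subunit genes, 16 (32%) fell at 24 h and 8 (16%) at 72 h. The small subunit gene that fell at 72 h was Mrps9 (Entrez 69527), the counterpart of S9 in the head of the subunit. At 72 h it ranged from 7.79 to 7.99 (median 7.93) in sham and from 7.35 to 7.72 (median 7.47) in MCAO, without overlap, and fell 1.35-fold (−0.43, SE 0.06, adjusted p = 0.000285). At 24 h it ranged from 7.97 to 8.12 (median 8.00) in sham and from 7.72 to 8.00 (median 7.82) in MCAO, with overlap, and fell 1.14-fold (−0.19, SE 0.06, adjusted p = 0.0361). The 24 h call was lost when MCAO 24 h replicate 2, 3 or 5 or sham 24 h replicate 1, 5 or 6 was left out, with adjusted p up to 0.0781.

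Mrps22 (Entrez 64655), mutated in people with a mitochondrial disease that can include cardiomyopathy, fell at 24 h. Sham arrays ranged from 5.86 to 6.37 (median 6.10) and MCAO arrays from 5.35 to 5.83 (median 5.59), without overlap, and the change was 1.45-fold (−0.54, SE 0.09, adjusted p = 0.000254). At 72 h the groups again did not overlap, with 5.87 to 6.17 (median 6.00) in sham and 5.51 to 5.80 (median 5.66) in MCAO, and the difference of −0.34 (SE 0.09) had an adjusted p of 0.0513. In 7 of the 24 fits without 1 array it passed the threshold: without MCAO 24 h replicate 1, 5 or 6, MCAO 72 h replicate 3, or sham 24 h replicate 1, 4 or 5 (adjusted p from 0.0321). Mrps16, whose loss causes a neonatal mitochondrial disease, fell 2.31-fold at 24 h (−1.21, SE 0.36, adjusted p = 0.0204). Its sham arrays spread from 5.62 to 8.45 (median 6.63) and its MCAO arrays from 4.54 to 6.58 (median 5.58), with overlap. The 8.45 is sham 24 h replicate 5, without which the change was 1.81-fold (−0.86, adjusted p = 0.0505). Without MCAO 24 h replicate 2 it was −1.02 (adjusted p = 0.0526).

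Mrps11 (−0.44, adjusted p = 0.00579) and Mrps34 (−0.53, adjusted p = 0.0204) also fell at 24 h. Mrps12, a protein of the decoding centre, was at −0.13 (24 h) and −0.58 (72 h, adjusted p = 0.157, and 0.036 without sham 24 h replicate 3). Mrps18b was at 0.27 (24 h) and −0.30 (72 h) and passed at neither time, and without sham 24 h replicate 4 it passed at 24 h (0.37, adjusted p = 0.0278). At 72 h the median over the small subunit was −0.28 and 22 of its 25 genes were negative, and over the large subunit −0.27 with 47 of 50 negative. At 24 h the medians were −0.09 for the small subunit and −0.21 for the large subunit. The 6 genes above their sham mean at 72 h were Mrpl20, Mrps27, Mrpl17, Mrps10, Mrpl32 and Mrps14, each with an adjusted p of 0.836 or more.

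**Figure D3:**
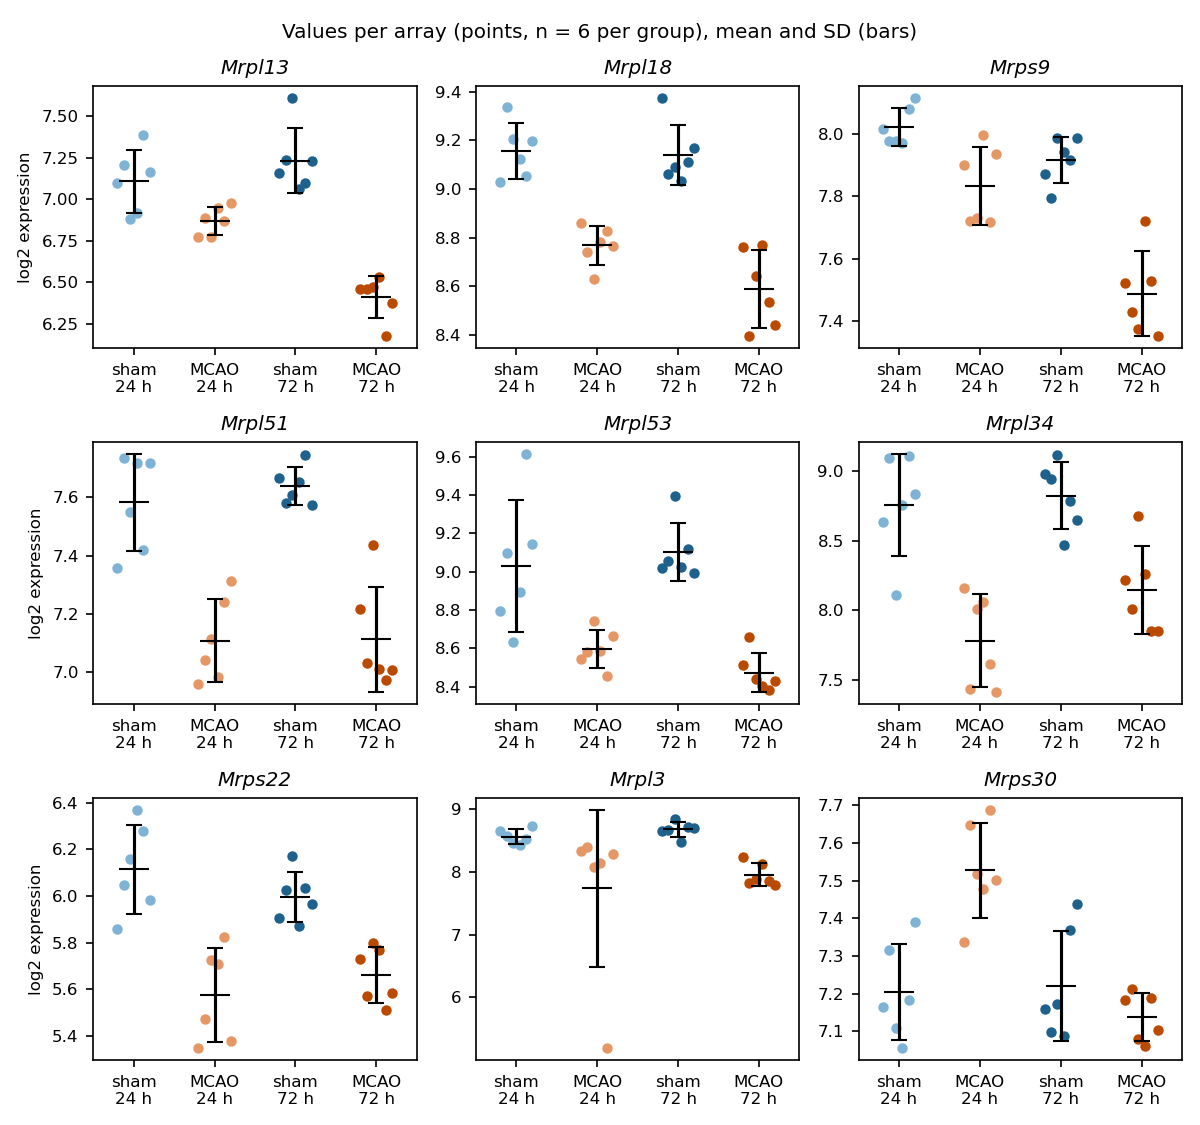
Log2 expression of 9 of the genes in each array (points) of the 4 groups, with the mean and SD of the 6 arrays as bars; each panel has its own vertical axis, which does not start at 0. Mrpl18, Mrpl51, Mrps22 and Mrpl3 have MCAO points below all sham points at both times, and 1 MCAO 24 h point of Mrpl3 lies at 5.19.

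The separation of the groups was counted for every gene as well. At 24 h 6 of the 76 genes, Mrps33, Mrpl23, Mrps22, Mrpl51, Mrpl18 and Mrpl3, had all MCAO arrays below all sham arrays, and 0 had them above, where 2.65% of all genes had them below and 2.88% above. At 72 h 18 had them below and 0 above, where the share of all genes was 1.77% in each direction. Those 18 include 8 of the 9 that fell and 10 that did not pass the threshold, such as Mrpl2, Mrpl49, Mrps6 and Mrps28.

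The median difference of the 76 genes was also taken in each array. In the 6 MCAO 72 h arrays it lay between −0.43 and −0.17, with a mean of −0.28 (SD 0.095), and each had 61 to 72 of the 76 genes below the sham mean. In the sham 72 h arrays it lay between −0.10 and 0.18, so that the groups do not overlap. The MCAO 24 h arrays lay between −0.25 and −0.06, with a mean of −0.16 (SD 0.063) and 42 to 63 genes below the sham mean. The sham 24 h arrays spread more widely, from −0.25 in replicate 3 to 0.19 in replicate 5, and overlap the MCAO 24 h arrays. In MCAO 24 h replicates 5 and 6 the small subunit median was above 0, at 0.06 and 0.14.

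**Figure D4:**
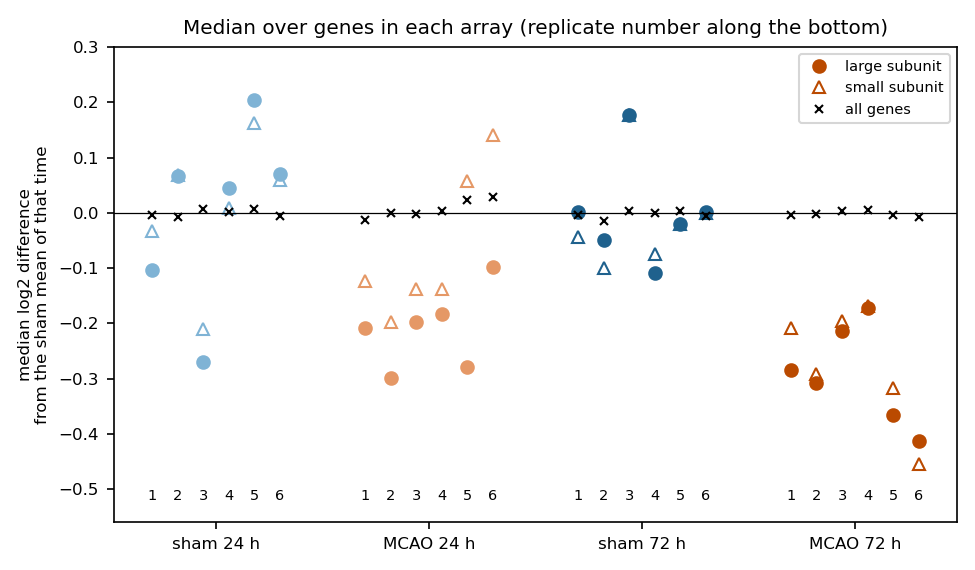
Median log2 difference from the sham mean of the same time in each array, for large subunit genes (filled circles), small subunit genes (open triangles) and all genes (crosses). All 6 MCAO 72 h arrays lie below all sham 72 h arrays for both subunits, and sham 24 h replicate 3 lies as low as MCAO 24 h arrays.

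Whether the effect of MCAO differed between the times was tested as an interaction, the 72 h difference minus the 24 h difference. Of all genes 0.991% were past the threshold as higher and 0.800% as lower, and of the 76 genes 0 were higher and 2 lower. Mrpl13 had the larger fall at 72 h (interaction −0.58, SE 0.13, adjusted p = 0.0221). Mrps30, up at 24 h and not at 72 h, had an interaction of −0.41 (SE 0.10, adjusted p = 0.0391). That call was lost in 14 of the 24 fits without 1 array, with adjusted p up to 0.07 and the interaction between −0.42 and −0.36. These were MCAO 24 h replicate 2, any of the 6 MCAO 72 h arrays, sham 24 h replicates 1, 3, 4 and 5, and sham 72 h replicates 1, 5 and 6. The third smallest p was that of Mrps31, at −0.46 (adjusted p = 0.0667), which passed without MCAO 24 h replicate 1 (0.0275) or 2 (0.0408). For the other genes called at one time and not at the other, no difference between the times passed the threshold.

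Sham hearts at 72 h were also compared with sham hearts at 24 h, which uses the control arrays of both comparisons above. With limma 0 of the 76 genes passed the threshold, and 0.0208% of all genes did. At an unadjusted p under 0.05 there were 3 of the 76, close to the 3.69% of all genes, with Mrpl45 at −0.34 (adjusted p = 0.909), Mrps27 at −0.31 and Mrpl43 at 0.21.

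The promoters of these genes are shown because genes of this family are known targets of nuclear respiratory factor 1 (NRF1) and of the ETS family factor GABP, also called NRF2. RefSeq start sites on GRCm38.p6 gave 73 windows of 250 bases upstream of the start for 67 of the 76 genes. The ETS motif CCGGAAG, searched on both strands, was in 16 windows (21.9%), against 6.91% of all 32851 promoter windows. The NRF1 motif, GCGCA and GCGC with 1 base of any kind between them, was in 10 windows (13.7%, against 3.74%). The E-box CACGTG was in 6 windows (8.22%, against 6.02%), the cAMP response element TGACGTCA in 2 (2.74%, against 1.55%) and the YY1 motif, AAGATGG followed directly by CGGC, in 1 (1.37%, against 0.207%). GC content, on which such counts depend, was 58% in the members' windows and 53.2% in all. In all, 25 of the 67 genes had an NRF1 or ETS motif. Of the 8 genes with a window that fell at 72 h, 5 had the ETS motif and 1 the NRF1 motif, against 11 and 9 of the other 59. These 8 are the calls of 1 fit, and with array weights 30 of the 76 genes passed at 72 h. Whether motif and fall go together was not tested. A match is a run of letters and not a measured binding site.

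The upstream windows of 4 genes that fell at 72 h and hold the ETS motif are printed 5′ to 3′ on the strand of the gene, with the last base next to the transcription start and the motif, or its reverse complement, in capitals. They are Mrpl18 (chr17:12916092-12916341, minus strand), Mrpl51 (chr6:125191950-125192199, plus strand), Mrpl53 (chr6:83108858-83109107, plus strand) and Mrpl43 (chr19:45006443-45006692, minus strand).
Mrpl18: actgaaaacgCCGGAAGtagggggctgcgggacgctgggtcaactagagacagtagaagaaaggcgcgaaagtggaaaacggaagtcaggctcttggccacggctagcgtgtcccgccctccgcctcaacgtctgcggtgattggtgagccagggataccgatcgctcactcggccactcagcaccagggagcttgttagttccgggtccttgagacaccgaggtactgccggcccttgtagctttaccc
Mrpl51: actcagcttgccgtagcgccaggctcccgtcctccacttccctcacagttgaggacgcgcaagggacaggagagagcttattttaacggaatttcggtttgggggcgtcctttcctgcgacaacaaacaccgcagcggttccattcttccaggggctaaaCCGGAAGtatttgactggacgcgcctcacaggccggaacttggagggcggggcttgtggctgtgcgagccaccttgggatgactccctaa
Mrpl53: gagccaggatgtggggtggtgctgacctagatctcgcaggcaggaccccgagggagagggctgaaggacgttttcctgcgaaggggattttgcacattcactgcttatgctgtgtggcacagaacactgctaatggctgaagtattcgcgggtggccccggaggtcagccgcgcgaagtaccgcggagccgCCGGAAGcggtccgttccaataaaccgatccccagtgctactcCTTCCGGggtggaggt
Mrpl43: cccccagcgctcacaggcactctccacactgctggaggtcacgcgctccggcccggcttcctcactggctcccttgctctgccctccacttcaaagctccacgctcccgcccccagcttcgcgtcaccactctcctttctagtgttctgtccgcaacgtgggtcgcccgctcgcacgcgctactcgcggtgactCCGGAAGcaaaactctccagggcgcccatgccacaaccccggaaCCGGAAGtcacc
The motif lies 234 to 240 bases upstream of the start of Mrpl18 and 84 to 90 bases upstream of that of Mrpl51. Mrpl53 has one 53 to 59 bases and, in reverse, one 10 to 16 bases upstream, and Mrpl43 has them at 50 to 56 and 6 to 12 bases. The motif of Mrpl18 lies at about the start of Tcp1, a gene read in the other direction that starts 238 bases away. Which of these genes that match would belong to cannot be told here.

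Neighbours that are read in the other direction and start upstream of these genes were read as well. Within 1000 bases, 24 of the 67 genes with a window had such a neighbour, and 22 of the neighbours are not members and were measured. The share of all genes with such a neighbour was not counted. At 72 h 0 of the 22 passed the threshold, 15 were below their sham mean and the median was −0.05. Of all genes 1.17% rose and 1.19% fell there and 49.2% were below, so a count of 0 among 22 says little. Tcp1, a chaperonin subunit gene that starts 238 bases from Mrpl18, differed by −0.05 at 72 h (adjusted p = 1), where Mrpl18 fell by 0.55. Ncapd2, 614 bases from Mrpl51, differed by −0.02. Twnk, the mitochondrial DNA helicase gene 116 bases from Mrpl43, differed by −0.05. At 24 h 2 of the 22 neighbours rose and 1 fell, where 11.1% of all genes rose and 10.8% fell. Whether neighbours and members differ was not tested. Pnpla7, opposite Mrpl41, rose by 0.91 (adjusted p = 2.49e-05) while Mrpl41 fell by 0.35. Mrpl46 and Mrps11 start 42 bases apart, and both fell at 24 h, by 0.53 and 0.44. The call of Mrpl46 was lost without MCAO 24 h replicate 2 or 6 or sham 24 h replicate 2, 5 or 6 (adjusted p up to 0.0897).

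Other genes of mitochondrial translation were read from lists. For comparison, 10.8% of all genes fell and 11.1% rose at 24 h, and 1.19% fell and 1.17% rose at 72 h. Of the 4 measured genes of mitoribosomal proteins with other names, 1 fell at each time: Ptcd3, a small subunit protein, by 0.32 (adjusted p = 0.00919) and 0.52 (adjusted p = 0.000763). Of 17 translation factor genes 5 fell at 24 h (29.4%) and 3 at 72 h (17.6%), and 0 rose, with medians of −0.15 and −0.18. Gfm1, an elongation factor, fell by 0.45 at 72 h (adjusted p = 0.000103), and Taco1, an activator of COX1 translation, by 0.60 (adjusted p = 0.000171). Mtif2, the initiation factor, fell by 0.40 at both times (adjusted p = 0.00237 and 0.0108), and Tufm, the elongation factor Tu, by 0.81 at 24 h (adjusted p = 0.0183).

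Of 29 genes of ribosome assembly and ribosomal RNA modification, 2 rose and 4 fell at 24 h and 3 fell at 72 h, with medians of −0.05 and −0.14. At 24 h these are 6.9% and 13.8% of the list, where 11.1% of all genes rose and 10.8% fell. At 72 h 10.3% of the list fell, against 1.19% of all genes. The 3 at 72 h were Tfb1m, a ribosomal RNA methyltransferase (−0.48, adjusted p = 0.00797), Gtpbp10, an assembly GTPase (−0.65, adjusted p = 0.0162), and Fastkd2 (−0.35, adjusted p = 0.0217). Of 16 mitochondrial tRNA synthetase genes 2 (12.5%) fell at 24 h, Wars2 and Lars2, and 1 (6.25%) at 72 h, Lars2 (−0.39, adjusted p = 0.0187). Of 13 genes that replicate and transcribe mitochondrial DNA, 0 fell and 4 (30.8%) rose at 24 h, among them Tfb2m (0.67, adjusted p = 0.0143) and Polg (0.35, adjusted p = 0.00716). At 72 h 0 passed the threshold and the median was −0.03.

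Of 17 regulators of mitochondrial biogenesis, 2 (11.8%) rose and 3 (17.6%) fell at 24 h and 1 (5.88%) rose at 72 h. Of all genes 11.1% rose and 10.8% fell at 24 h, and 1.17% rose at 72 h. Perm1 fell by 0.72 (adjusted p = 0.000911), the coactivator gene Ppargc1b by 0.53 (adjusted p = 0.00597) and Esrrg by 0.30 (adjusted p = 0.0245) at 24 h. Sirt1, a deacetylase, rose by 0.52 at 24 h (adjusted p = 0.000223) and by 0.40 at 72 h (adjusted p = 0.00874). The RNAs that mitochondrial DNA itself encodes were not analysed here.

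**Figure D5:**
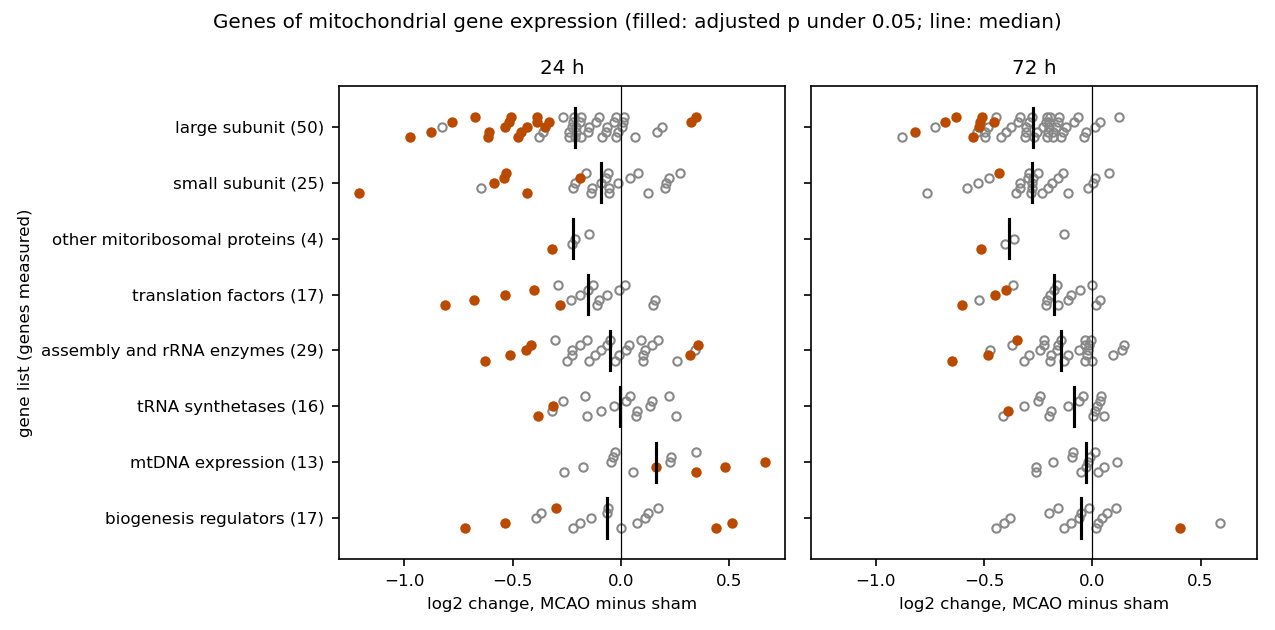
Log2 difference, MCAO minus sham, of each gene (circles, filled where adjusted p was under 0.05) in the lists of mitochondrial gene expression at 24 h and 72 h; the black line is the median of a list and the number beside its name the genes measured. Both subunits lie left of 0 at 72 h, with medians of −0.27 and −0.28, whereas the genes of mitochondrial DNA expression have a median of −0.03.

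Marker genes of cell types were read in the same fits, where 10.8% of all genes fell and 11.1% rose at 24 h. At 72 h the shares of all genes were 1.19% and 1.17%. The 10 cardiomyocyte markers were high in all groups, with a mean level between 12.29 and 12.70 per array. At 24 h 3 of them fell (Myh6 by 0.33, Ttn by 0.17, Ryr2 by 0.18), and at 72 h 0 passed the threshold and the median was −0.16. These probes lie near the top of the scale, and Actc1 was at 13.49, about the highest value of the table, in every sham 24 h array, so their differences are not set beside those of the ribosomal protein genes. Of 7 fibroblast markers 4 fell at 24 h (Lum, Col1a1, Col1a2 and Col3a1; median of the 7 −0.83) and 1, Col3a1, at 72 h (median −0.64). The other 3 passed at neither time: Pdgfra was at 0.11 (24 h) and 0.47 (72 h, adjusted p = 0.0585), Tcf21 at 0.26 and −0.22, and Dcn at −0.07 and 0.10. Their mean level was 7.64 to 8.13 in sham and 6.65 to 7.49 in MCAO arrays at 24 h, and 7.43 to 8.59 and 7.15 to 7.71 at 72 h. Macrophage markers, 5 measured, had 0 past the threshold at both times and medians of −0.23 and −0.35. Neutrophil markers were near the low end of the scale, with a mean level of 3.40 to 4.02 per array, and 2 of 5 rose at 24 h and 0 at 72 h. Of 6 endothelial markers 2 rose and 1 fell at 24 h, and 1 rose and 1 fell at 72 h. Smooth muscle markers, 6 in number, had 1 lower at 24 h and 0 past the threshold at 72 h. Of 4 adipocyte and 6 lymphocyte markers, 1 in each list rose at 24 h and 0 passed at 72 h. Of 4 erythroid markers 1 rose and 1 fell at 24 h and 0 passed at 72 h. The mean erythroid level was the highest of its group in sham 24 h replicate 5 (4.83), MCAO 24 h replicate 5 (4.65) and sham 72 h replicate 3 (4.63). In sham 24 h replicate 3 it was 4.18. The part of these differences in the results above was not tested.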

How the data were processed

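Hearts of C57BL/6J mice were measured on 24 Affymetrix arrays, 6 per group, grouped by the sample titles. The values are log2 expression levels as deposited by the authors, 1 per gene identifier. The log base was inferred from their range, 2.78 to 13.5. Sorted values were nearly identical in all deposited columns, as after quantile normalization. The submitters' processing notes name HOMER with no version. How probes were summarized, and on which genome build, is not given in the sources used here. No detection limit was analysed here, and the number of arrays limits the precision.

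Of 24973 identifiers, 24015 had a gene symbol in the platform annotation, and 4 symbols with several identifiers were reduced to the brightest, leaving 24011 genes. Each of the 76 members has 1 identifier. The test was limma's (version 3.58.1, run in R 4.3.3), with lmFit on 4 group means, eBayes at its defaults and 20 residual degrees of freedom, and p-values were adjusted with the Benjamini-Hochberg method over all genes. The script was tested on simulated data. The members, the gene lists and the alternatives were chosen with earlier results of these data known. The alternatives were the fit on the compared groups, array weights, a trended and robust prior, median centring, repeated quantile normalization, a filter on dim genes, every identifier as its own row, a replicate block, leaving out single arrays or MCAO 24 h replicates 5 and 6, and the receptor gene component as a covariate. A fit without sham 24 h replicates 3 and 5 and sham 72 h replicate 3 was added after the data were seen. Genes were named where past the threshold, up to 10 higher and 10 lower by smallest p for each MCAO comparison, up to 5 and 5 for the others (the 3 smallest p where fewer than 3 passed), or for a known role. From other lists, up to 4 per comparison past the threshold were named. Further genes, such as Mrpl15, Mrpl42, Mrpl46 and Mrps16, were named after their values were seen. Promoter windows came from RefSeq tables on GRCm38.p6.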

Additional observations from a re-analysis of the deposited data

Results flagged for a closer look

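For the 30 members named by rule and for the median of all members, each of the 124 groups of 6 arrays was searched for 1 array far from the other 5, and 11 were found; chance alone marks about 1 in 20. The median level of the 76 genes was 7.10 in sham 24 h replicate 3, where the other 5 sham arrays lay between 7.37 and 7.52. In MCAO 24 h replicate 5, Mrpl3 was at 5.19 (the others from 8.08), Mrpl1 at 5.09 (from 5.78), Mrpl12 at 8.02 (from 8.46) and Mrpl45 at 7.53 (from 7.92), each the lowest of its group. In sham 72 h replicate 3, Mrpl12 was at 9.75 (the others up to 9.14), Mrpl13 at 7.61 (up to 7.24), Mrpl53 at 9.40 (up to 9.12) and Mrps18a at 8.11 (up to 7.59), each the highest of its group, and Mrpl16 was the lowest at 7.79 (the others from 8.10). In MCAO 72 h replicate 4, Mrpl10 was at 8.09, where the others reached 7.62.

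The effect of MCAO differed between 72 h and 24 h by limma's interaction test for Mrpl13, by −0.58, and for Mrps30, by −0.41.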

How the results depend on the processing

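At 24 h, 24 members passed the threshold, 10 in the fit on the compared groups and 3 with the receptor gene covariate, and 17 to 26 with 1 array left out. Of all genes 10.8% fell at 24 h, and 4.36% in the fit on the compared groups and 0.646% with the covariate. At 72 h 1.19% of all genes fell, and 2.81% in the fit on the compared groups and 3.96% with array weights. With the covariate 1.38% fell at 72 h and 11 members passed. At 72 h, 9 passed, 27 in the fit on the compared groups and 30 with array weights. There were 20 without MCAO 24 h replicates 5 and 6, and 14 without sham 24 h replicates 3 and 5 and sham 72 h replicate 3. With 1 array left out there were 7 to 16. The share of all genes is not given for fits that left out arrays. The interaction had 2, and 1 with array weights, with a trended and robust prior, with dim genes left out and without those 3 sham arrays, 0 with the covariate, and 1 to 4 with 1 array left out. Sham at 72 h against 24 h had 0 in each. The median difference stayed negative in every fit run, from −0.25 to −0.13 at 24 h and from −0.30 to −0.23 at 72 h. Replicate numbers did not pair the arrays: the same-number correlation was over 0.1 in 3 of 36 pairs, and 3 of 36 arrays correlated best with their own number; with the replicate block 22, 9 and 2 members passed at 24 h, at 72 h and for the interaction.

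Of 2303 single-gene alternatives 2132 kept direction and side of the threshold, 92 fell short of it, 53 newly passed it and 26 changed sign. Leaving out an array of the other time cannot change a difference at 24 h or 72 h, only its estimated spread. Many of these genes were also far from the threshold, so the 2132 is no measure of robustness. With the covariate the 24 h differences turned to 0.043 (Mrpl1), −0.003 (Mrpl10), −0.159 (Mrpl11), 0.034 (Mrpl12), 0.940 (Mrpl3), 0.410 (Mrpl32), 0.001 (Mrpl41), 0.329 (Mrps12) and −0.139 (Mrps31). The receptor genes themselves differed with MCAO at 24 h, so these changes cannot be told apart from a removal of the MCAO difference. Mrps18a at 24 h was −0.027 with array weights and −0.079 without the 3 sham arrays, and Mrpl32 at 72 h −0.008 and −0.061. With 1 array left out the sign also changed for Mrps18a at 24 h (−0.052 to 0.157), Mrps12 at 24 h (−0.338 to 0.052), Mrpl58 at 24 h (−0.092 to 0.022), Mrpl32 at 72 h (−0.061 to 0.082) and Mrpl41 at 72 h (−0.065 to 0.008). The causes were not tested. Without a background signal for the arrays, how far dim values can be trusted is unknown.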

Other observations

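The 3 sham arrays that stood apart did so over many of the same genes, a pattern noticed after the data were seen. Of the 76 genes, 20 were 0.5 or more above the mean of the other sham arrays in sham 24 h replicate 5, among them Mrps12, Mrps16, Mrps24, Mrpl42, Mrpl52 and Mrpl54. All 20 were below the mean of the others in sham 24 h replicate 3, 11 of them by 0.5 or more. The same 20 were above the mean of the others in sham 72 h replicate 3, 13 of them by 0.5 or more. Arrays of 1 group share the mean they are compared with, so the first of these counts is not independent of the choice of the 20.

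Genes of cytosolic ribosomal proteins, 64 measured, are the counterpart in the cytosol and were read in the same fits. At 24 h 4 (6.25%) rose and 14 (21.9%) fell, with a median of −0.07, where 11.1% of all genes rose and 10.8% fell. At 72 h 0 rose and 1 (1.56%) fell, with a median of −0.08, where 1.19% of all genes fell. The medians of the 76 mitochondrial ribosomal protein genes were −0.19 and −0.28. The difference between these families was not tested.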
